A study of Mus musculus with 17 samples.

Results

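The fast-fibre sarcomere genes are 10 genes whose products build the contractile apparatus of fast-twitch skeletal muscle fibres. They were taken by name: the rows of the deposited table whose gene symbol was Myl1, Mylpf, Mybpc2, Tnnc2, Tnni2, Tnnt3, Tpm1, Actn3, Myoz1 or Myoz3. Each symbol matched 1 row, so 10 of 36172 rows were members, and all 10 were among the 13965 genes that passed a filter on low counts. RNA was sequenced from the extensor digitorum longus (EDL), a mostly fast-twitch muscle at the front of the shin, of 17 mice. Of these, 10 had been given an empty vector (5 females and 5 males) and 7 a Hand2 vector (4 females and 3 males). Sympathetic neurons depend on the transcription factor Hand2, and by its title the series concerns keeping these neurons in old age as a means against sarcopenia, the loss of muscle with ageing. The sources used here do not give the strain, or how, where and when the vectors were delivered. Every mouse was old. The empty-vector females were 22 months (replicates 1 and 2) and 23 months (replicates 3, 4 and 5), the empty-vector males 23 months (replicates 6 to 9) and 22 months (replicate 10). The Hand2 females were 22 months (replicates 1, 2 and 3) and 23 months (replicate 5), the Hand2 males 22 months (replicate 4) and 23 months (replicates 6 and 7). The 4 Hand2 animals of 22 months are also those whose sample titles lack a sex letter, so age cannot be told apart from title form among them.

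A sarcomere shortens when myosin heads of the thick filament pull on actin of the thin filament. Calcium opens the thin filament by binding troponin C, which acts through troponin I and troponin T to shift tropomyosin off the myosin-binding sites, and the thin filaments are anchored in the Z-disc by alpha-actinin. Most of these proteins have a fast and a slow isoform from separate genes, and a fast muscle such as the EDL is built mostly of fibres that use the fast set.

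Total estimated counts ran from 19181208 to 30942818 per library with a median of 26091234, and the most similar pair of libraries still differed beyond sampling (mean chi-square of 6.84 per gene). Levels below are CPM, counts scaled to library size with factors from the trimmed mean of M values (TMM). The Hand2 transcript lay between 0.0711 and 0.94 CPM in the empty-vector animals and between 1.02 and 26.3 CPM in the Hand2 animals, without overlap but with a narrow gap. Its medians were 0.382 and 2.04 CPM, and the 26.3 CPM belonged to Hand2 replicate 7 alone. A level of 3 counts was 0.097 to 0.156 CPM across libraries, so the lowest values lay near the floor. Genes that define skeletal muscle were high in every library: Acta1 at 12000 to 17460 CPM, Ckm at 9738 to 12643 CPM and Mb, which is higher in oxidative fibres, at 2399 to 4329 CPM. Myh4, the myosin heavy chain of the fastest fibres, lay at 18996 to 31790 CPM. Of the smooth muscle markers, Myh11 lay between 54.0 and 77.1 CPM and Tagln between 47.0 and 70.2 CPM. Acta2 is listed at 0 in every library, which beside these values may not be a measured level. These are values of whole muscle, in which fewer fibres of a type and less RNA per fibre cannot be told apart.

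Of the 10 members, 4 lie on chromosome 7 (mm10, coordinates as deposited): Mybpc2 (Entrez gene 233199, 44501699 to 44524669), Mylpf (17907, 127211608 to 127214287), Tnni2 (21953, 142442468 to 142444405) and Tnnt3 (21957, 142498836 to 142516009). Tnni2 and Tnnt3 are 54.4 kb apart with 1 gene, Lsp1, between them. The others are Myl1 (17901, chromosome 1, 66924296 to 66945056), Tnnc2 (21925, chromosome 2, 164777162 to 164779734), Tpm1 (22003, chromosome 9, 67022593 to 67049213), Myoz1 (59011, chromosome 14, 20649102 to 20656540), Myoz3 (170947, chromosome 18, 60573717 to 60591716) and Actn3 (11474, chromosome 19, 4861216 to 4877909). Each row counts a whole gene, so the isoforms that Tnnt3, Tpm1 and Myl1 make by alternative splicing or alternative promoters are summed.

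Together the 10 genes took 4.49% to 5.71% of all counts in a library, with a median of 5.0%. To compare genes with each other, CPM was divided by the length in kb of the longest annotated coding sequence. On that scale the troponins and light chains stood highest, and the Z-disc proteins and Mybpc2 lowest. Tnnt3, fast troponin T, which ties the troponin complex to tropomyosin, had a median of 11859 CPM per kb. Tnnc2, fast troponin C, the calcium sensor, had 10286 CPM per kb, and Myl1, the essential light chain of fast myosin, 9096 CPM per kb. Tnni2, fast troponin I, the inhibitory subunit, had 7846 CPM per kb. Mylpf, the regulatory light chain of fast myosin, was next to it at 7774 CPM per kb. Tpm1, alpha-tropomyosin, had 6656 CPM per kb; it is also used in heart and smooth muscle. A step down came Actn3, the alpha-actinin of fast Z-discs, at 2711 CPM per kb. Myoz1 (myozenin 1, a calcineurin-binding Z-disc protein) had 2086 CPM per kb and Mybpc2 (fast myosin-binding protein C of the thick filament) 1724 CPM per kb. Myoz3, the third myozenin, was lowest at 702 CPM per kb.

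This order was nearly the same in each animal. Of the 9 neighbouring steps, 7 went the same way in all 17 animals. Tnnc2 lay above Myl1 in 16 of 17, and Tnni2 above Mylpf in only 9 of 17, so those last 2 genes were not separated by the spread between animals. The length of a gene was the same for every animal, so agreement between animals does not bear on the choice of length. Other lengths were not tried. Within a vector-by-sex group, the SD of log2 CPM was smallest for Tnni2 (0.068), Tnnt3 (0.077), Myoz1 (0.078) and Tnnc2 (0.086). It was 0.113 for Tpm1, 0.128 for both Myl1 and Mylpf, 0.154 for Myoz3, 0.167 for Mybpc2 and 0.202 for Actn3. The median over all genes tested was 0.195, so 9 of 10 members varied less between like-treated animals than the median gene and Actn3 slightly more. The share of genes with a lower SD ran from 3.69% for Tnni2 to 51.9% for Actn3. Members were not compared with genes of like level, and the part of their high counts in these SDs was not tested.

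**Figure D1:**
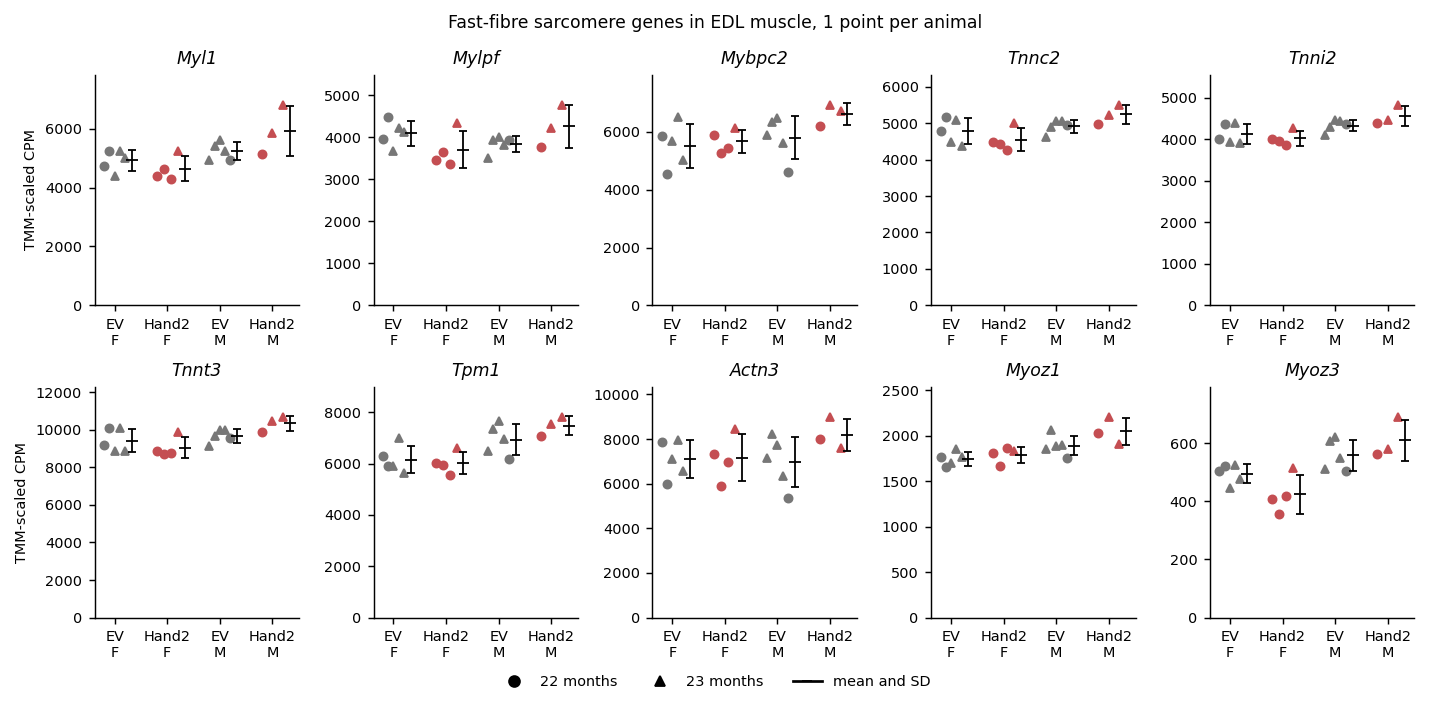
TMM-scaled CPM of each member (y axes, linear from 0, different ranges) in every animal by vector (EV, empty vector; Hand2) and sex (F, M); circles are 22-month and triangles 23-month animals, bars the group mean and SD. In every panel the 10 empty-vector and the 7 Hand2 animals overlap, and so do the 9 females and the 8 males; Tnnt3 runs from 8691 to 10683 CPM and Myoz3 from 356.7 to 690.6 CPM.

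The study's main question, what the Hand2 vector does to aged muscle, was asked first of all animals with sex as a term. No member passed the test: 0 of 10 had an adjusted p under 0.05 in edgeR's quasi-likelihood test, and 0 of 10 an unadjusted p under 0.05. Over all 13965 genes tested, 0.0% were called and 5.05% had an unadjusted p under 0.05 (705 genes; DESeq2 called 1 gene and limma-voom 0). DESeq2 and limma-voom called 0 of 10 members too. The log2 fold changes, Hand2 against empty vector, ran from -0.06 for Myoz3 to 0.11 for Actn3, with 8 members above 0 and 2 below. Their median was 0.03, beside 0.00 over all genes.

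Among the thin filament genes, Tnnc2 gave 0.00 (95% interval -0.10 to 0.10), Tnni2 0.01 (-0.07 to 0.10), Tnnt3 0.01 (-0.08 to 0.11) and Tpm1 0.04 (-0.08 to 0.15). Of the thick filament genes, Mylpf gave -0.01 (-0.15 to 0.14), Myl1 0.04 (-0.10 to 0.18) and Mybpc2 0.11 (-0.05 to 0.27). In the Z-disc, Myoz1 gave 0.07 (-0.02 to 0.16), Myoz3 -0.06 (-0.23 to 0.11) and Actn3 0.11 (-0.08 to 0.31). Changes beyond those limits in either direction lay outside the unadjusted 95% intervals of these animals, and changes within them remain possible. The smallest change that these groups could have called was not computed. For no member were all animals of one vector above all of the other; 0.0215% of all genes had such separated groups.

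The slow counterparts did not pass either. Of the 9 slow counterparts 0 were called (0 at an unadjusted p under 0.05 in edgeR), with a median of 0.00 and a range of -0.38 for Myoz2 to 0.13 for Myl3. That median moved with the setting. It was -0.135 in limma-voom and -0.149 with limma on the authors' normalized values, with all 9 below 0 in both. In the 22-month animals alone it was -0.794, and in the 23-month animals alone 0.367. In each of these settings 0 of the 9 were called. Of 20 other genes of fast fibres (calcium handling and glycolysis), 0 were called, 1 had an unadjusted p under 0.05 and 16 lay above 0. That one was Mylk2, the kinase of skeletal myosin light chains, at 0.26 ± 0.12 (log2 fold change ± SE; adjusted p = 0.921 in edgeR). Among 25 regulators of fibre type, 0 were called and 0 had an unadjusted p under 0.05; the smallest p was that of Tbx15, a factor of glycolytic fibres, at 0.16 ± 0.077. Among 31 other sarcomere genes the same counts were 0 and 0, with 23 below 0 and a median of -0.06. The cell-marker lists also gave 0 calls. All 8 fibroblast markers (median 0.21) and all 7 macrophage markers measured (median 0.20) lay above 0; none was at 0. The summed fibroblast markers ran from 621.0 to 1474 CPM with the empty vector and 874.0 to 1759 CPM with Hand2, and the macrophage markers from 72.2 to 200 CPM and from 121.0 to 177.0 CPM. Their part in the members' values was not tested.

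Within each sex edgeR called nothing either. In females 3 members were higher and 7 lower with Hand2 (median -0.05), and in males 10 of 10 were higher (median 0.12). Other lists of muscle genes went the same way only in part. In females all 9 slow counterparts (median -0.27), 26 of 31 other sarcomere genes (-0.09) and 12 of 20 other fast-fibre genes (-0.01) were lower. In males 6 of 9 (median 0.16), 16 of 31 (0.01) and 18 of 20 (0.11) of the same lists were higher. The median over all genes was -0.004 in each sex. Neither comparison called a member or any of the 13965 genes in edgeR (0.0% each). DESeq2 called 7 genes in females and 1 in males, none of them a member, and limma-voom 0 in both. An unadjusted p under 0.05 was reached by 1 member and 5.9% of all genes in females, and by 0 members and 2.84% of genes in males.

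Myoz3 was the member that reached it in females. Its levels with the empty vector were 503.9, 521.6, 446.8, 524.4 and 477.6 CPM (females, replicates 1 to 5), and with Hand2 408.1, 356.7 and 417.2 CPM at 22 months and 515.9 CPM at 23 months. The 3 younger Hand2 females lay below every empty-vector female and the older one lay among them. The log2 fold change was -0.22 ± 0.097, 0.858-fold (unadjusted p = 0.0351, adjusted p = 0.84 in edgeR). In males the levels were 510.8, 607.5, 620.7, 548.6 and 505.4 CPM with the empty vector (replicates 6 to 10), and 561.3, 579.5 and 690.6 CPM with Hand2 (replicates 4, 6 and 7), a change of 0.13 ± 0.10 (adjusted p = 1 in edgeR).

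The myosin light chains also had positive interaction values, given below. Myl1 was at 4728, 5251, 4382, 5245 and 5009 CPM in the empty-vector females and at 4389, 4648, 4280 and 5244 CPM in Hand2 females (replicates 1, 2, 3 and 5). In males it was at 4941, 5422, 5623, 5255 and 4950 CPM with the empty vector and 5130, 5839 and 6819 CPM with Hand2. Hand2 replicates 6 and 7 exceeded every other animal, and the third Hand2 male lay within the empty-vector range. Mylpf was at 3964, 4490, 3672, 4219 and 4127 CPM in empty-vector females and 3460, 3659, 3360 and 4352 CPM in Hand2 females, so that 3 of the 4 Hand2 values lay below all 5 others. In males Mylpf was at 3510, 3935, 4002, 3811 and 3941 CPM with the empty vector and 3774, 4225 and 4779 CPM with Hand2, and 2 of the 3 Hand2 values lay above all 5.

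The difference between the sexes in the vector effect, tested itself as an interaction, was above 0 for all 10 members (median 0.16, over all genes 0.00) and called for 0. This direction was not particular to the members. It was shared by 8 of 9 slow counterparts (median 0.33) and all 6 myosin heavy chains (0.19). So it was by 26 of 31 other sarcomere genes (0.13) and 18 of 20 other fast-fibre genes (0.15), with 0 called in each list. edgeR gave an unadjusted p under 0.05 for 3 members, Myoz3 at 0.35 ± 0.14, Mylpf at 0.29 ± 0.12 and Myl1 at 0.26 ± 0.12, each with an adjusted p of 1. Over all genes 0.0% were called and 3.39% had an unadjusted p under 0.05. No member had separated vector groups within females or males, against 1.65% and 2.63% of all genes.

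Sex and age were not balanced: 5 of 9 females and 2 of 8 males were 22 months old. In the 22-month animals alone the median over members of the Hand2 effect was -0.08 (4 up, 6 down), and in the 23-month animals alone it was 0.12 (10 up), with 0 called in either; the difference between the ages was not tested. The only 23-month Hand2 female, replicate 5, lay above all 3 younger Hand2 females in 9 of 10 members; the exception was Myoz1. Hand2 replicates 7 and 6, the 23-month males, held the highest value of all 17 animals in 7 and 3 members. Their libraries were among the smallest, with 19181208 and 22051694 counts, and replicate 7 also had the most Hand2 transcript (26.3 CPM). The part of depth and of Hand2 level in these values was not tested.

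**Figure D2:**
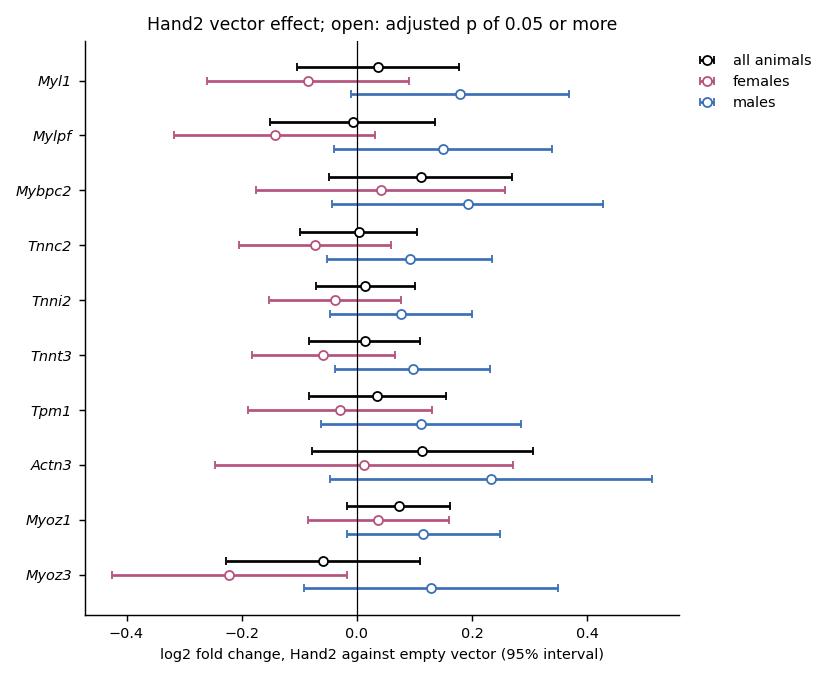
Log2 fold change, Hand2 against empty vector (x axis), with 95% intervals for each member (y axis) over all animals, in females and in males; open circles have an adjusted p of 0.05 or more in edgeR, which is every point. Female values run from -0.22 to 0.04 and male values from 0.08 to 0.23.

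Between the sexes, with vector as a term, 3 of the 10 members were higher in males and none was lower. They were Tpm1, Myoz3 and Myoz1, 1 gene of the thin filament and 2 of the Z-disc. Over all 13965 genes, 5.63% were called in edgeR (2.91% higher and 2.72% lower in males, 406 and 380 genes; 514 and 270 with upper-quartile scaling). All 10 members lay above 0, with a median of 0.12 against 0.00 for all genes, and 7 had an unadjusted p under 0.05, as did 21.6% of all genes. The members' summed share of counts was 5.22% ± 0.353 in males (SD, n = 8) and 4.76% ± 0.264 in females (SD, n = 9). It was 4.91% ± 0.307 with the empty vector (SD, n = 10) and 5.07% ± 0.475 with Hand2 (SD, n = 7).

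Tpm1 ran from 5559 to 6997 CPM in the 9 females (median 5944) and from 6166 to 7820 CPM in the 8 males (median 7206). All 8 males lay above the female median and 5 above every female. Males were higher by 0.23 ± 0.056 on the log2 scale, 1.17-fold (adjusted p = 0.0228 in edgeR). The other thin filament genes lay higher by less and were not called. Tnni2 had a median of 4011 CPM in females and 4413 CPM in males (0.12 ± 0.040, adjusted p = 0.102), and all 8 males again lay above the female median. Tnnt3 went from a median of 8881 to 9918 CPM (0.10 ± 0.045, adjusted p = 0.207) and Tnnc2 from 4495 to 5017 CPM (0.11 ± 0.048, adjusted p = 0.203).

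Myoz3 ran from 356.7 to 524.4 CPM in females (median 477.6) and from 505.4 to 690.6 CPM in males (median 570.4). Here 6 of 8 males lay above every female and 6 of 9 females below every male. The difference was 0.32 ± 0.079, 1.25-fold, the largest among the members (adjusted p = 0.0254 in edgeR). Myoz1 ran from 1657 to 1858 CPM in females (median 1765) and from 1754 to 2205 CPM in males (median 1905), with 6 of 8 males above every female, a difference of 0.15 ± 0.042, 1.11-fold (adjusted p = 0.0473). Actn3, the remaining Z-disc gene, spread widely in both sexes, from 5887 to 8464 CPM in females and from 5381 to 8994 CPM in males, and gave 0.06 ± 0.090 (adjusted p = 0.731).

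In the thick filament no member was called. Myl1 had medians of 4728 CPM in females and 5338 CPM in males (0.20 ± 0.066, adjusted p = 0.0875 in edgeR). Mylpf, at 3964 and 3938 CPM, gave 0.03 ± 0.067 (adjusted p = 0.854), and Mybpc2, at 5685 and 6273 CPM, gave 0.13 ± 0.075 (adjusted p = 0.323). For no member were the sexes fully separated, beside 0.845% of all genes.

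The 3 calls were close to the threshold. When each of the 17 animals was left out in turn, Tpm1 was called in 16 fits, Myoz3 in 12 and Myoz1 in 2. With age as a term none was called (adjusted p = 0.052 for Tpm1, 0.0599 for Myoz3 and 0.0969 for Myoz1), and none without Hand2 replicate 7 (0.052, 0.0542 and 0.0505). Myoz3 was also lost when empty-vector replicate 3, 7 or 8, or the third Hand2 replicate, was left out singly. Tpm1 alone was called without all 3 of the 23-month empty-vector females, or with limma on the authors' normalized values.

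The slow counterparts lay in the other direction. Of 9, 6 were called lower in males and none higher, and all 9 lay below 0 (median -2.21). The slow troponins had log2 fold changes of -2.77 ± 0.40 (Tnni1, adjusted p = 0.000966 in edgeR), -2.50 ± 0.39 (Tnnc1, adjusted p = 0.00168) and -2.21 ± 0.32 (Tnnt1, adjusted p = 0.000966). The slow light chains had -2.65 ± 0.42 (Myl3, adjusted p = 0.00203) and -2.39 ± 0.32 (Myl2, adjusted p = 0.000428), and the slow tropomyosin Tpm3 -0.85 ± 0.15 (adjusted p = 0.00307). Myoz2 (0.5-fold, adjusted p = 0.0567), Mybpc1 (-0.18 ± 0.068, adjusted p = 0.121) and Actn2 (-0.24 ± 0.22, adjusted p = 0.569) were not called. Myl2 was the only one with separated sexes: 97.67 to 330.4 CPM in females and 14.61 to 71.01 CPM in males. Between 6 and 7 of the 9 were called in every setting run for this comparison.

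**Figure D3:**
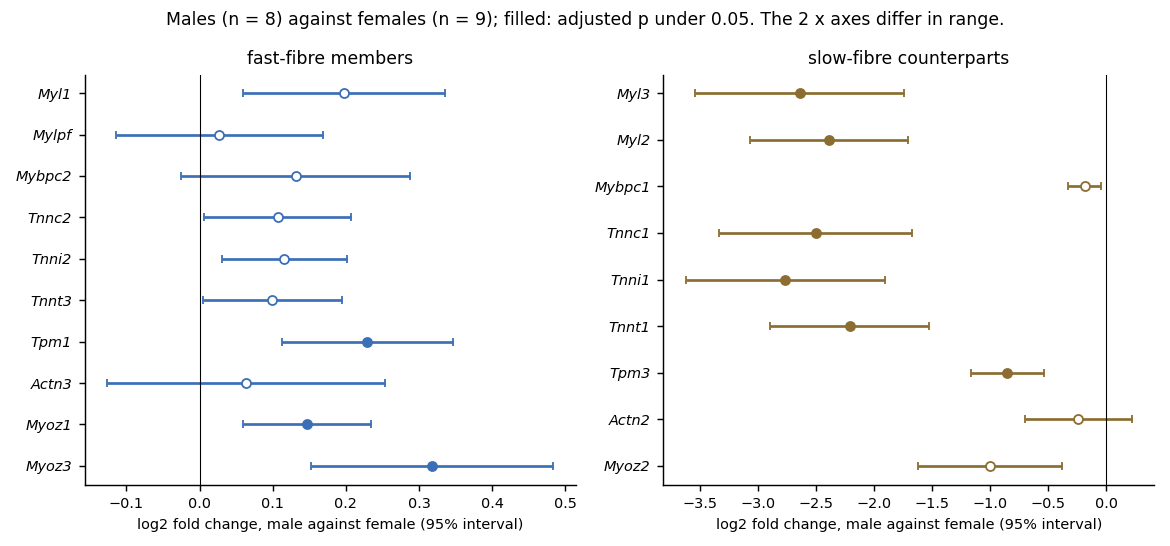
Log2 fold change, male against female (x axes, which differ in range), with 95% intervals for the 10 members (left) and the 9 slow counterparts (right); filled circles have an adjusted p under 0.05 in edgeR. The 10 members lie between 0.03 and 0.32 and the 9 slow counterparts between -2.77 and -0.18.

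The slow genes of the troponins, light chains and tropomyosin were a small part of their pairs in both sexes. Slow isoforms were counted as a percentage of the fast and slow gene together, per kb of coding sequence. Tnni1 made up 1.22% ± 0.582 of the troponin I pair in females (SD, n = 9) and 0.169% ± 0.077 in males (SD, n = 8). Tnnt1 made up 1.1% ± 0.458 and 0.226% ± 0.0663 of troponin T, and Tnnc1 1.32% ± 0.641 and 0.22% ± 0.0852 of troponin C. For the light chains, Myl3 made up 1.65% ± 0.764 in females and 0.243% ± 0.126 in males, and Myl2 4.23% ± 1.31 and 0.844% ± 0.44. Tpm3 was at 2.59% ± 0.65 and 1.24% ± 0.181. Higher shares were seen in the Z-disc, where Myoz2 made up 9.18% ± 3.55 in females and 4.5% ± 2.67 in males. Actn2 made up 20.7% ± 7.45 and 18.0% ± 7.68, but it is the general alpha-actinin, so this is not a share of slow isoform alone. Mybpc1, named for slow muscle but also known in fast fibres, made up 50.6% ± 4.65 in females and 45.4% ± 4.68 in males. Hand2 replicate 2 stood low among the females, with Tnni1 at 9.713 CPM where the other 8 had 22.94 to 80.54 CPM.

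Other genes of the sarcomere and of fibre type were read in the same comparison. Of 6 myosin heavy chains, 2 were called, both lower in males: slow Myh7 (-3.79 ± 0.75, adjusted p = 0.0092 in edgeR) and embryonic Myh3 (-0.63 ± 0.14, adjusted p = 0.0125). The fast heavy chains were not: Myh4 gave 0.16 ± 0.088, Myh1 -0.09 ± 0.12 and Myh2 -0.53 ± 0.23 (adjusted p = 0.293, 0.721 and 0.199), and perinatal Myh8 gave -0.23 ± 0.068 (adjusted p = 0.0571). Of 31 other sarcomere genes, 2 were called lower, Mybph, a relative of myosin-binding protein C (-1.43 ± 0.27), and Smpx, a small muscle protein (-0.15 ± 0.039). Lmod2, a leiomodin of the thin filament, gave -1.09 ± 0.32 (adjusted p = 0.0612) and Ankrd2, a stretch-responsive protein of slow fibres, -1.07 ± 0.32 (adjusted p = 0.0687).

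Of 20 other fast-fibre genes, 17 lay above 0 and 1 was called higher, Pgam2, the muscle phosphoglycerate mutase (0.18 ± 0.051, adjusted p = 0.0431 in edgeR). Casq1, calsequestrin of fast fibres, gave 0.20 ± 0.070, Pvalb, the calcium buffer parvalbumin, 0.20 ± 0.090 and Tpi1, a glycolytic isomerase, 0.13 ± 0.053, none called. Of 25 regulators, Ppard, a nuclear receptor tied to oxidative fibres, was lower (-0.35 ± 0.060, adjusted p = 0.00191), and Tead1, a partner of the Vgll cofactors, was higher in males (0.25 ± 0.070, adjusted p = 0.0457). Eya4, a transcriptional cofactor, gave 0.38 ± 0.14 and Tbx15 0.18 ± 0.076, neither called.

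Some markers of other cell types differed with sex too. Of 8 adipocyte markers, 7 had a log2 fold change below 0 and 1 above. In males 5 were called lower, among them Retn (-1.66 ± 0.32), Cidec (-1.60 ± 0.31), Adipoq (-1.22 ± 0.29) and Plin1 (-1.29 ± 0.31). None of the 8 was without counts. Their summed level ran from 907.0 to 1790 CPM in females (median 1024) and 891.0 to 1568 CPM in males (median 1010). Of 6 satellite cell markers Cdh15 was called lower (-0.37 ± 0.078), but 4 of the 6 lay above 0 (median 0.13). Of 8 Schwann cell markers Ncmap was called lower (-0.58 ± 0.12), and 7 lay below 0 (median -0.21). No smooth muscle, endothelial, fibroblast, macrophage or red blood cell marker was called in edgeR, of 9, 8, 8, 7 and 4 tested (5, 3, 1, 1 and 0 had an unadjusted p under 0.05). Their part in the members' difference was not tested.

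The members did not all vary together from animal to animal. After the mean of each vector-by-sex group was taken from log2 CPM, the 45 pairs of members had a median Pearson r of 0.65 over 17 animals (range -0.08 to 0.96), and 42 were above 0. These r are descriptions: the values share a library, its scaling and its RNA quality. By eye on those values, 2 sets stood out. The light chains and troponins (Myl1, Mylpf, Tnnc2, Tnni2, Tnnt3) gave r of 0.756 to 0.958 over their 10 pairs. Actn3, Mybpc2 and Myoz1 gave 0.636 to 0.892 over 3 pairs. Between the 2 sets the 15 pairs ran from -0.084 to 0.261. Tpm1 and Myoz3 lay between, with median r of 0.654 and 0.742 to the first set and 0.686 and 0.458 to the second. The first set has short coding sequences (480 to 816 bases) and the second longer ones (888 to 3408 bases); the part of transcript length or RNA integrity was not tested.

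**Figure D4:**
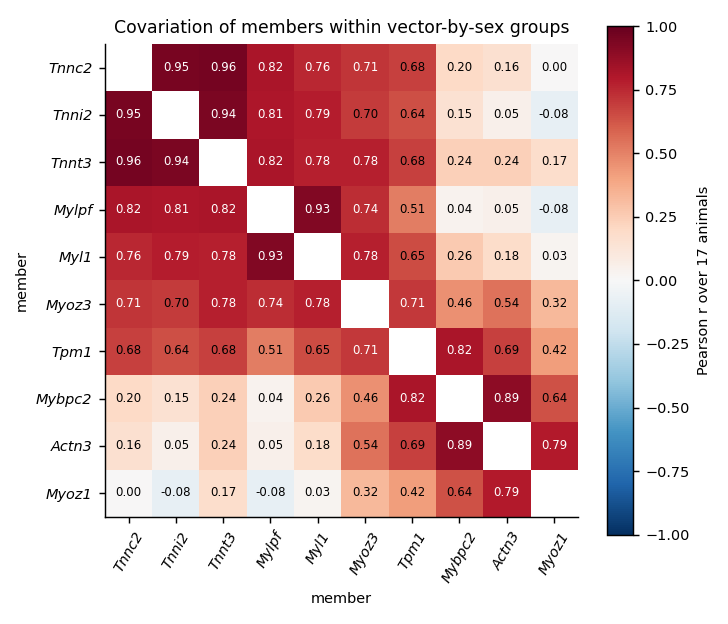
Pearson r over 17 animals (colour scale from -1 to 1, values printed in the cells) between members, from log2 CPM after removing vector-by-sex group means; rows and columns are ordered after the values were seen. The 5 light chain and troponin genes form a block of 0.76 or more, and Mybpc2, Actn3 and Myoz1 another of 0.64 or more.

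Genes most like each member were picked as the 3 with the highest such r among all genes tested. For the 3 troponins the nearest 2 were the other troponins: Tnnt3 and Tnnc2 had r = 0.958, Tnni2 and Tnnc2 0.953, Tnni2 and Tnnt3 0.941. The third was Bzw2 for Tnni2 (0.83) and Tnnc2 (0.841) and Ckm, muscle creatine kinase, for Tnnt3 (0.866). Myl1 and Mylpf were each other's nearest (0.929). Next for Myl1 were Sharpin (0.863) and Myom2, an M-band protein (0.835), and for Mylpf Acta1, skeletal actin (0.908), and Trim45 (0.901). Mybpc2 was nearest to Pvalb (0.961), to Phkb, a phosphorylase kinase subunit (0.952), and to Pygm, muscle glycogen phosphorylase (0.943). Actn3 was nearest to the kinase Camk2a (0.95), Kbtbd12 (0.939) and the reductase Msrb3 (0.921). Tpm1 had Dcbld2 (0.91), Klhdc8b (0.881) and Pvalb (0.877). Myoz1 had Ubxn2a (0.914), the acetyltransferase Kat2b (0.911) and the channel subunit Abcc9 (0.894), and Myoz3 had Ccdc122 (0.907), Fbf1 (0.879) and the potassium channel Kcnh2 (0.858).

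Promoter sequence was at hand for 5 of the 10 members in the RefSeq promoter table (GRCm38.p6): Myl1, Mylpf, Tnnc2, Tpm1 and Mybpc2. The 250 bases before the start are shown for 3 genes of the light chain and troponin set and, for contrast, for Mybpc2 of the other set. For Mybpc2 alone, the sequence after the start was not found in a GENCODE M21 transcript of the gene. Its start, and positions counted from it, are less certain. Capitals mark E-boxes (CANNTG, the core letters bound by MyoD-family factors) and TATA boxes (TATAAA), searched on both strands.
Myl1 (minus strand, chr1:66945057-66945306): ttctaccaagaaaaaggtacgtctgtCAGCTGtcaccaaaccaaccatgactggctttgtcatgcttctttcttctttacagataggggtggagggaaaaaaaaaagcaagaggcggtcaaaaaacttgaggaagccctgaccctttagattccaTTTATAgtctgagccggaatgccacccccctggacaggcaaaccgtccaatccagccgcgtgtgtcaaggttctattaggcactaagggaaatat
Mylpf (plus strand, chr7:127211358-127211607): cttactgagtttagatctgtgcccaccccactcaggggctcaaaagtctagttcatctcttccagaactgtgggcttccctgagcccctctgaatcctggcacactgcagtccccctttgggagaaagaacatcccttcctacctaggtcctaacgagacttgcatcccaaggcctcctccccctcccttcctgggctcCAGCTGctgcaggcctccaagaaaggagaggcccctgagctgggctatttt
Tnnc2 (minus strand, chr2:164779735-164779984): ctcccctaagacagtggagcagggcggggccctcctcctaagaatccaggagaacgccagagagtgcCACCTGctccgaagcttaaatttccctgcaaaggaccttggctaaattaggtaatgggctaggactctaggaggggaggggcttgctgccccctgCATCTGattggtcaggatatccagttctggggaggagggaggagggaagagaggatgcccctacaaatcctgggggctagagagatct
Mybpc2 (minus strand, chr7:44524670-44524919): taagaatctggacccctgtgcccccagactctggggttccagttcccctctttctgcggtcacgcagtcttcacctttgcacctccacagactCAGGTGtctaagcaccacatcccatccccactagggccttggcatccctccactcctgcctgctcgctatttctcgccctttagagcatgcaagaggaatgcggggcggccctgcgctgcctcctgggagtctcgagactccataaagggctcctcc

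All 5 windows, that of Tpm1 included, hold an E-box, as do 66.2% of the 32851 windows of this length in the table, and Tnnc2 holds 2. Counted in bases before the start, the E-boxes begin at 224 in Myl1, 51 in Mylpf, 183 and 88 in Tnnc2, 198 in Tpm1 and 157 in Mybpc2. The letters TATAAA occur in 1 of the 5, on the opposite strand 95 bases before the start of Myl1, and in 12.4% of all windows. A loose form of the CArG box of serum response factor, which fixes only its outer C and G pairs and overlaps itself in places, occurs in all 5 and in 67.1% of all windows. Neither a loose MEF2 motif (3.2% of all windows) nor the MEF3 letters (TCAGGTT, 3.49%) occur in the 5.

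Whether a fast gene and its slow partner moved against each other was examined across the 17 animals as Pearson's r and Spearman's rho of log2(CPM + 0.5), for 9 pairs with permutation p-values adjusted over the 9. Actn3 and Actn2, the fast and the general alpha-actinin, gave r = -0.779 and rho = -0.755 (permutation p = 0.0002 and 0.00073, adjusted p = 0.0018 and 0.00328), and r = -0.662 without the 2 animals farthest from the median of Actn2. Those 2, empty-vector replicates 2 and 10, held the most Actn2 (3705 and 2842 CPM, against 1140 to 2172 CPM in the other 15). Their Actn3 was 5999 and 5381 CPM, the latter the lowest of all; Hand2 replicate 2 was also low at 5887 CPM. Within sexes r was -0.689 in females (permutation p = 0.024, adjusted over the 18 within-sex values 0.216) and -0.865 in males (permutation p = 0.0104, adjusted p = 0.188). The male value rested on 2 animals, since r was -0.02 without them.

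**Figure D5:**
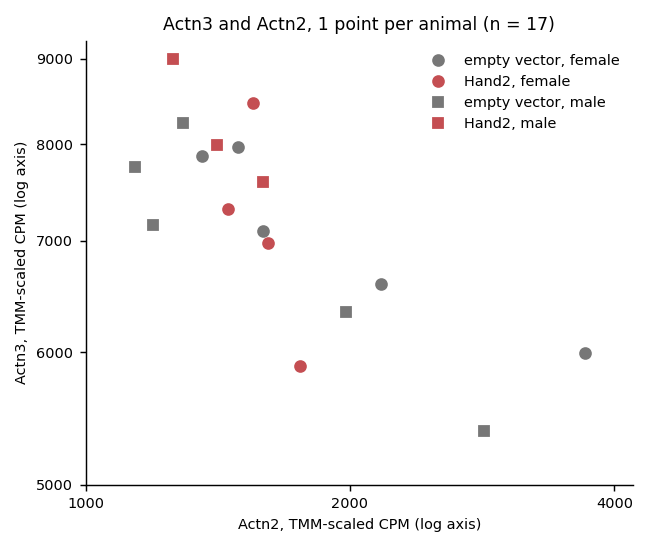
Actn3 against Actn2, both as TMM-scaled CPM on log axes, 1 point per animal (n = 17) by vector and sex. Animals with more Actn2 have less Actn3 (r = -0.779), and the 2 with the most Actn2, at 2842 and 3705 CPM, are empty-vector animals with 5381 and 5999 CPM of Actn3.

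Myoz1 and Myoz2 gave r = -0.67 and rho = -0.789 (permutation p = 0.00317 and 0.0003, adjusted p = 0.0143 and 0.0027), and r = -0.777 without the 2 farthest animals. Within sexes r was -0.551 in females and -0.307 in males (permutation p = 0.1 and 0.458), neither past the threshold. Mybpc2 and Mybpc1 gave r = -0.58 (permutation p = 0.0144, adjusted p = 0.0431) and rho = -0.429 (permutation p = 0.0879, adjusted p = 0.15), and r fell to -0.273 without the 2 farthest animals, on which the relation rests. Sex was not taken out of these values over all animals. Within sexes this pair gave r = -0.486 in females and -0.518 in males (permutation p = 0.185 and 0.194). Without the 2 farthest animals of each sex, r was 0.73 in females and -0.14 in males. For the other 6 pairs the slow gene separated largely by sex, so only the within-sex values are given. In females r was 0.464 for Myl1 with Myl3, 0.641 for Mylpf with Myl2, 0.287 for Tnni2 with Tnni1, 0.562 for Tnnt3 with Tnnt1, 0.357 for Tnnc2 with Tnnc1 and 0.079 for Tpm1 with Tpm3. In males the same pairs gave -0.304, -0.408, 0.249, 0.324, 0.318 and 0.137. None of the 18 within-sex values passed after adjustment (permutation tests, lowest adjusted p = 0.188).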

How the data were processed

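Libraries from the EDL of 17 mice were made with Illumina TruSeq v2, per the labels' protocols; the genome build is mm10, per the submitters' processing notes. The sources used here do not give the aligner, the counter or the use of strand. The authors deposited estimated counts per gene locus, not scaled for depth, and normalized log2 values whose scaling the sources used here leave unstated. Estimated counts were rounded. edgeR 4.0.16 (R 4.3.3) kept 13965 genes by filterByExpr over vector-by-sex groups, scaled them by TMM and tested them by robust quasi-likelihood F tests with Benjamini-Hochberg adjustment over all genes at 5%. Vector and sex effects came from a model with both terms, those within a sex and their difference from 4 vector-by-sex groups. The SE is the size of the log2 fold change divided by the square root of F. The procedure was tested on simulated data with changes larger than any of the members' changes in the main fits. It therefore does not show how well changes of the members' size are found. Alternatives were DESeq2 1.42.0, limma-voom (limma 3.58.1), other scalings and filters, an age term, single ages, limma on the authors' values and leaving out animals.

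The members and the gene lists were chosen with earlier results of these data known. Named were all members, slow counterparts and myosin heavy chains, up to 4 genes per other list by smallest p in the comparison described, and the 3 genes most alike each member. Of the list symbols, 5 had no row matched (Klhl40, Klhl41, Adgre1, Hbb-bt and Hbb-bs). Gene coordinates are those deposited (mm10), and coding lengths are from GENCODE M21. Groups and replicate numbers follow the labels, with numbers in accession order. Libraries stand for separate animals, and p-values measure the spread between these animals. Libraries carried no molecular identifiers.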

Additional observations from a re-analysis of the deposited data

Results flagged for a closer look

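Tnnt3 in the Hand2 females held a value far from the others of its group. Hand2 replicate 5 had 9884 CPM, while replicates 1, 2 and 3 had 8844, 8691 and 8772 CPM. Its gap to the nearest animal was 0.871 of the group's range, above the critical value of 0.829 for 4 samples. Replicate 5 is the only Hand2 female of 23 months, and it lay within the range of the empty-vector females (8856 to 10099 CPM). Over the members, 50 sets of 4 to 10 animals were examined and 1 stood out in this way. The sets share animals and many members vary together, so this count cannot be set against the 1 in 20 that chance gives for separate sets.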

How the results depend on the processing

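No paired analysis was possible because the replicate numbers used follow the order of the records, and numbers within the animals' names are not said to mark a shared litter, batch or day. The members called between the sexes numbered 3, but 5 in limma-voom with quality weights (Myl1 and Tnni2 added), 4 with totals that omit sarcomere genes (Tnni2 added) and without empty-vector replicates 2 and 10 (Myl1 added), 2 with no filter and without the vector term (Myoz1 lost in both), 1 without the 23-month empty-vector females, 1 with limma on the authors' normalized values and 0 with an age term; leaving out 1 animal at a time gave 0 to 3. In the other 4 comparisons 0 members were called in every setting run. With the age term the sex difference of Actn3 and of Mylpf turned to -0.001, and Mylpf ran from -0.021 (without Hand2 replicate 7) to 0.055 when 1 animal was left out. Vector effects near 0 changed sign. Mylpf became 0.008 with upper-quartile scaling, 0.001 with totals that omit sarcomere genes, 0.002 at a mean CPM of at least 5, 0.006 without the 23-month empty-vector females, 0.011 with the age term, 0.196 in 23-month animals, and 0.019 without empty-vector replicates 2 and 10, an omission chosen after seeing the data. Tnnc2 became -0.003 without the 23-month empty-vector females and -0.002 without the sex term. In 22-month animals Myl1 was -0.109, Tnni2 -0.065, Tnnt3 -0.088 and Tnnc2 -0.128, and in 23-month animals Myoz3 was 0.13. In females Actn3 became -0.044 both in limma-voom and without empty-vector replicates 2 and 10, Mybpc2 -0.023 in the latter, and Tpm1 0.009 with the age term. Leaving out 1 animal gave ranges across 0 for Myl1 (-0.026 to 0.066), Mylpf (-0.063 to 0.027), Tnni2 (-0.010 to 0.030), Tnnt3 (-0.007 to 0.031) and Tnnc2 (-0.023 to 0.025) over all animals, and in females for Actn3 (-0.079 to 0.095), Tpm1 (-0.075 to 0.022) and Mybpc2 (-0.022 to 0.107). The cause of these changes was not tested. What part depth or the number of animals has in these counts was not tested.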
